A study of Mus musculus with 6 samples.

Results

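The collagen genes of adipogenic bone marrow stromal cell cultures were compared between wild-type mice (WT) and mice whose label names a miR-188 knockout (KO), miR-188 being a microRNA. Every gene with a symbol of the form Col, number, a, number was taken, which gave 44 of the 19938 genes measured. They comprised 11 fibrillar, 6 basement membrane, 6 beaded filament and 9 FACIT chains, and 12 others. FACIT stands for fibril-associated collagen with interrupted triple helices. The cells came from C57BL/6 mice aged 6 months, with 3 biological replicates per genotype and 1 Affymetrix array for each. Both genotypes were cultured in the same induction medium, which held dexamethasone (1 µM), insulin (5 µg/ml), the phosphodiesterase blocker IBMX (0.5 mM) and fetal calf serum (10%). Separate mice are not named for the replicates, and p-values then cover the spread of these samples, which may be technical. Neither the length of induction nor how far the deletion extends is stated in the labels. The Mir188 probe set read 7.22, 7.27 and 7.38 in WT and 7.22, 7.22 and 7.13 in KO, with overlapping groups (limma adjusted p = 0.348), and does not check the genotype.

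Collagens are the main structural proteins of the extracellular matrix, built of alpha chains that wind in threes into a triple helix. Fibrillar collagens form the load-bearing fibrils of bone and connective tissue. Type IV collagen forms the sheet of basement membranes, type VI forms beaded microfibrils around cells, and FACIT chains sit on the surface of fibrils. Stromal cells of the marrow can mature into osteoblasts, which lay down a matrix rich in type I collagen. Maturing adipocytes are known to exchange a fibrillar matrix for a basement membrane with type IV and type VI collagen.

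Levels are log2 expression values, and differences are KO minus WT on that scale. Each probe set has its own affinity, so levels of different genes were not ranked, and a level was set only against the other arrays and against background. A background level of 6.83 was taken from the 95th percentile of 1027 olfactory receptor genes. Of the stromal markers fixed for the check of the cell type, 8 of 9 lay above it, among them Pdgfra, Pdgfrb and Nt5e, while Lepr did not. Of 8 chondrocyte markers 2 lay above it, and the cartilage proteoglycan gene Acan averaged 6.63 ± 0.15 among WT arrays and 6.78 ± 0.08 among KO arrays (SD, n = 3 each). Of 10 macrophage markers 3 lay above it, Cd68 by 4.12, while Adgre1, Csf1r and Ptprc did not. Of 8 endothelial markers 5 lay above it, by 0.73 at most (Vwf), while Pecam1 did not.

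Collagen genes that changed were all lower in KO. Of the 44 genes, 8 fell and 0 rose (limma, adjusted p under 0.05, Benjamini-Hochberg over all genes), and 36 did not pass the test. The 8 made up 18.2% of collagen genes, while of all genes 3.97% were called lower in KO, 3.34% higher and 7.31% either way. At an unadjusted p under 0.05, 14 collagen genes were lower and 0 higher. Among all 19938 genes, 2239 were lower and 1880 higher at that threshold. The 8 were the fibrillar Col1a1, Col1a2, Col3a1 and Col5a2, the beaded filament Col6a1 and Col6a3, the FACIT Col12a1 and the short-chain Col8a1. In 14 collagen genes all 3 KO values lay below all 3 WT values, which held for 13.5% of all genes. In 0 collagen genes did all KO values lie above, which held for 11.4% of all genes. The median difference over the 44 was -0.02, against 0.00 over all genes. In whole cultures, fewer cells of a type and less RNA per cell cannot be told apart. With 1 array left out, 5 to 7 collagen genes were called lower, the 7 without KO replicate 1 including Col6a2, which is not among the 8. The count was 5 where KO replicate 3, WT replicate 1 or WT replicate 3 was missing, while the share of all genes called lower dropped to between 0.401% and 2.63%.

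**Figure D1:**
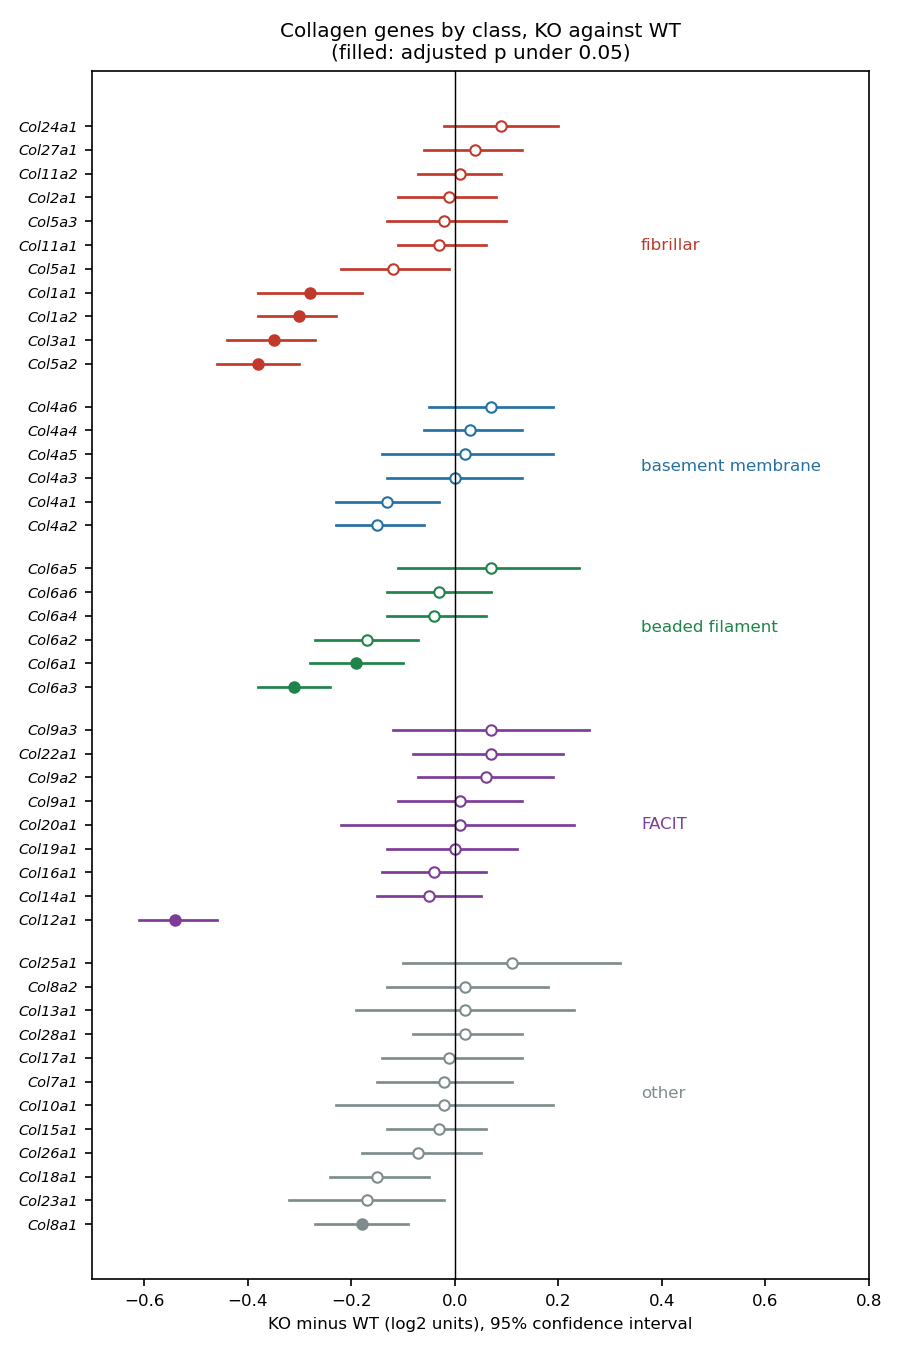
KO minus WT in log2 units (horizontal axis) for each of the 44 collagen genes, grouped by class, with the 95% confidence interval of limma as a line and filled points at an adjusted p under 0.05. The 8 filled points all lie below 0, with Col12a1 the lowest at -0.54, and no class has a filled point above 0.

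Col12a1, a FACIT chain that coats type I fibrils, fell the most of the collagen genes. It read 10.43, 10.41 and 10.41 in the 3 WT arrays and 9.86, 9.90 and 9.87 in the 3 KO arrays. The groups lay far apart against their spread, with an SD of 0.01 in WT and 0.02 in KO. The difference was -0.54 (SE 0.03, 95% interval -0.61 to -0.46, limma adjusted p = 0.000978), a level 31.1% lower in KO. It passed in each of the 6 fits that left out 1 array (adjusted p = 0.01 to 0.0205).

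The other 8 FACIT chains showed no such fall. Their differences lay between -0.05 for Col14a1, found on fibrils of skin and tendon, and 0.07 for Col22a1, of tissue junctions, and Col9a3. Of the 9 FACIT genes, 1 fell, 0 rose and 8 did not pass (limma; 1 lower and 0 higher at an unadjusted p under 0.05), with a class median of 0.01. The cartilage chains Col9a1, Col9a2 and Col9a3, which form 1 trimer, differed by 0.01, 0.06 and 0.07. The 95% interval of Col14a1 was -0.15 to 0.05 and that of Col16a1, another chain of this class, -0.14 to 0.06. Neither interval reaches the size measured for Col12a1. These 2 probe sets lay only 0.66 and 1.37 above background, against 3.32 for Col12a1. Near background a probe set can understate a change, so the intervals cannot show that such a fall is absent.

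Among the fibrillar chains, both genes of type I collagen, the main protein of bone, fell by similar amounts. Col1a1 read 12.42, 12.43 and 12.43 in WT and 12.22, 12.10 and 12.12 in KO, and Col1a2 read 12.13 in all 3 WT arrays and 11.85, 11.79 and 11.83 in KO. The groups overlapped in neither gene, and KO replicate 1 was the highest KO array in both. The falls were 17.6% for Col1a1 and 19% for Col1a2. The log2 difference between the 2 chains of an array averaged 0.30 ± 0.00 for WT and 0.33 ± 0.04 for KO (SD, n = 3 each), so their balance moved by 0.02 (two-sided exact permutation p = 0.5). The call of Col1a1 was lost when KO replicate 3, WT replicate 1 or WT replicate 3 was left out (limma adjusted p = 0.0562 to 0.0752), while Col1a2 passed in all 6 such fits. As the WT values of Col1a2 were equal, the fits without a WT array left its difference unchanged.

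Type III and type V collagen join type I in mixed fibrils, where type V is known to start the fibril. Col3a1, the only chain of type III, read 9.62 in all 3 WT arrays and 9.27, 9.23 and 9.32 in KO. It fell by 0.35 (SE 0.04, limma adjusted p = 0.00439), or 21.7%. The origin of such equal WT values was not tested, and their SD of 0.00 measures no precision. With equal WT values, leaving out a WT array leaves the difference unchanged. Col5a2 read 9.20, 9.15 and 9.17 in WT and 8.78, 8.77 and 8.82 in KO, which is 23.1% lower. Both genes passed in all 6 fits that left out 1 array.

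Of the type V chains, only Col5a2 was called lower. Col5a1, the partner of Col5a2 in the common type V trimer, read 8.96, 9.02 and 9.04 in WT and 8.94, 8.82 and 8.91 in KO. Its 6 values did not overlap between the groups, but the gap was small and the difference of -0.12 did not pass (95% interval -0.22 to -0.01, limma adjusted p = 0.192). Within each array, Col5a2 minus Col5a1 was 0.24, 0.13 and 0.12 in WT and -0.16, -0.05 and -0.08 in KO. That balance shifted by -0.26 (two-sided exact permutation p = 0.1, the smallest that 3 against 3 arrays allow, and 0.2 after Benjamini-Hochberg adjustment over 6 chain pairs). The third chain, Col5a3, differed by -0.02 (95% interval -0.13 to 0.10).

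The cartilage and minor fibrillar chains stayed within 0.09 of WT. Col2a1, the main collagen of cartilage, differed by -0.01 (95% interval -0.11 to 0.08), and its fibril partners Col11a1 and Col11a2 by -0.03 and 0.01. The developmental chains Col24a1 and Col27a1 differed by 0.09 and 0.04. All of these cartilage and minor chains lay 0.57 to 1.78 above background, where a probe set can understate a change. Of 11 fibrillar genes, 4 fell, 0 rose and 7 did not pass (limma; 5 lower and 0 higher at an unadjusted p under 0.05), and the class median was -0.03.

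Type VI collagen, the beaded filament around cells, fell in 2 of its 3 classical chains. Col6a3 read 10.86 in all 3 WT arrays and 10.54, 10.58 and 10.54 in KO, a fall of 19.4% that passed in all 6 fits without 1 array (limma adjusted p = 0.0195 to 0.0408). Its WT values were equal, so the fits without a WT array left its difference unchanged. Col6a1 read 11.32, 11.37 and 11.32 in WT and 11.18, 11.09 and 11.16 in KO, a fall of 12.5% (limma adjusted p = 0.0311). Its groups did not overlap, yet its call was lost in each of the 6 fits without 1 array (adjusted p = 0.0571 to 0.115), and after quantile normalization again (adjusted p = 0.136) or cyclic loess (adjusted p = 0.0786). Col6a2 read 9.72, 9.73 and 9.72 in WT and 9.63, 9.54 and 9.50 in KO. Its difference of -0.17 did not pass (limma adjusted p = 0.0622) and did pass without KO replicate 1 (adjusted p = 0.0377).

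A single chain of each kind makes up the classical type VI trimer, so their balance was also measured within each array. Col6a3 minus Col6a1 averaged -0.47 ± 0.03 for WT and -0.59 ± 0.07 for KO (SD, n = 3 each), and Col6a3 minus Col6a2 was 1.14 ± 0.01 and 1.00 ± 0.07. Both pairs shifted down, by 0.12 and 0.14, with no overlap between the groups (two-sided exact permutation p = 0.1 each, adjusted p = 0.2 over 6 pairs). Both contain Col6a3, so they are not separate observations. The gap was narrow for Col6a3 minus Col6a1, at -0.50 in WT replicate 2 and -0.51 in KO replicate 2. Col6a1 minus Col6a2 shifted by -0.03 (exact permutation p = 0.6). The newer chains Col6a4, Col6a5 and Col6a6, which can stand in for Col6a3 in the trimer, differed by -0.04, 0.07 and -0.03 (limma adjusted p = 0.691, 0.680 and 0.774). The second probe sets of Col6a5 and Col6a6, not used for the comparison, differed by 0.08 and 0.11 at levels below background.

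Basement membrane collagen did not pass the test. Of the 6 type IV genes 0 fell and 0 rose (limma; 2 lower and 0 higher at an unadjusted p under 0.05), and the class median was 0.01. Col4a1 and Col4a2 form the widespread trimer of basement membranes. Col4a1 read 9.84, 9.90 and 9.87 in WT and 9.81, 9.68 and 9.74 in KO, and Col4a2 read 10.00, 9.97 and 10.00 in WT and 9.90, 9.84 and 9.80 in KO. The KO values were the lower ones without overlap in both. The differences were -0.13 (95% interval -0.23 to -0.03, limma adjusted p = 0.140) and -0.15 (95% interval -0.23 to -0.06, limma adjusted p = 0.0626). Both passed with array weights (adjusted p = 0.0301 and 0.0103), a setting in which WT replicate 3 had a weight of 7.41 and the other arrays 0.524 to 1.19. The balance of the 2 chains moved by 0.02 (exact permutation p = 0.7). The chains of kidney and other specialised membranes, Col4a3, Col4a4, Col4a5 and Col4a6, differed by 0.00 to 0.07 in size and lay within 0.53 of the background level.

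Of the 12 remaining genes, only Col8a1, a short-chain collagen of vessel walls and subendothelial sheets, fell. It read 10.15, 10.16 and 10.12 in WT and 9.99, 9.90 and 10.00 in KO, a fall of 11.6% (limma adjusted p = 0.0436). The groups did not overlap, but the call was lost in each of the 6 fits without 1 array (adjusted p = 0.0793 to 0.135) and under both rescalings (adjusted p = 0.0800 with cyclic loess and 0.0855 with quantile normalization again). Col8a2, its partner, lay at the background level and differed by 0.02.

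Col18a1, whose C-terminal fragment is endostatin, read 9.12, 9.12 and 9.08 in WT and 9.0, 8.88 and 8.99 in KO, a difference of -0.15 that did not pass (limma adjusted p = 0.0944). The transmembrane chain Col23a1 read 8.44, 8.45 and 8.56 in WT and 8.30, 8.21 and 8.43 in KO, a difference of -0.17 with a wide interval of -0.32 to -0.02 (limma adjusted p = 0.185). In both genes the KO values lay below the WT values, by a margin of 0.01 in Col23a1. Col10a1, the collagen of hypertrophic cartilage, was the only member below background and differed by -0.02. The anchoring fibril chain Col7a1, the skin hemidesmosome chain Col17a1 and the basement membrane zone chain Col15a1 differed by -0.02, -0.01 and -0.03. The largest positive difference of the family was that of Col25a1, a transmembrane chain of neurons, at 0.11 (95% interval -0.10 to 0.32).

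**Figure D2:**
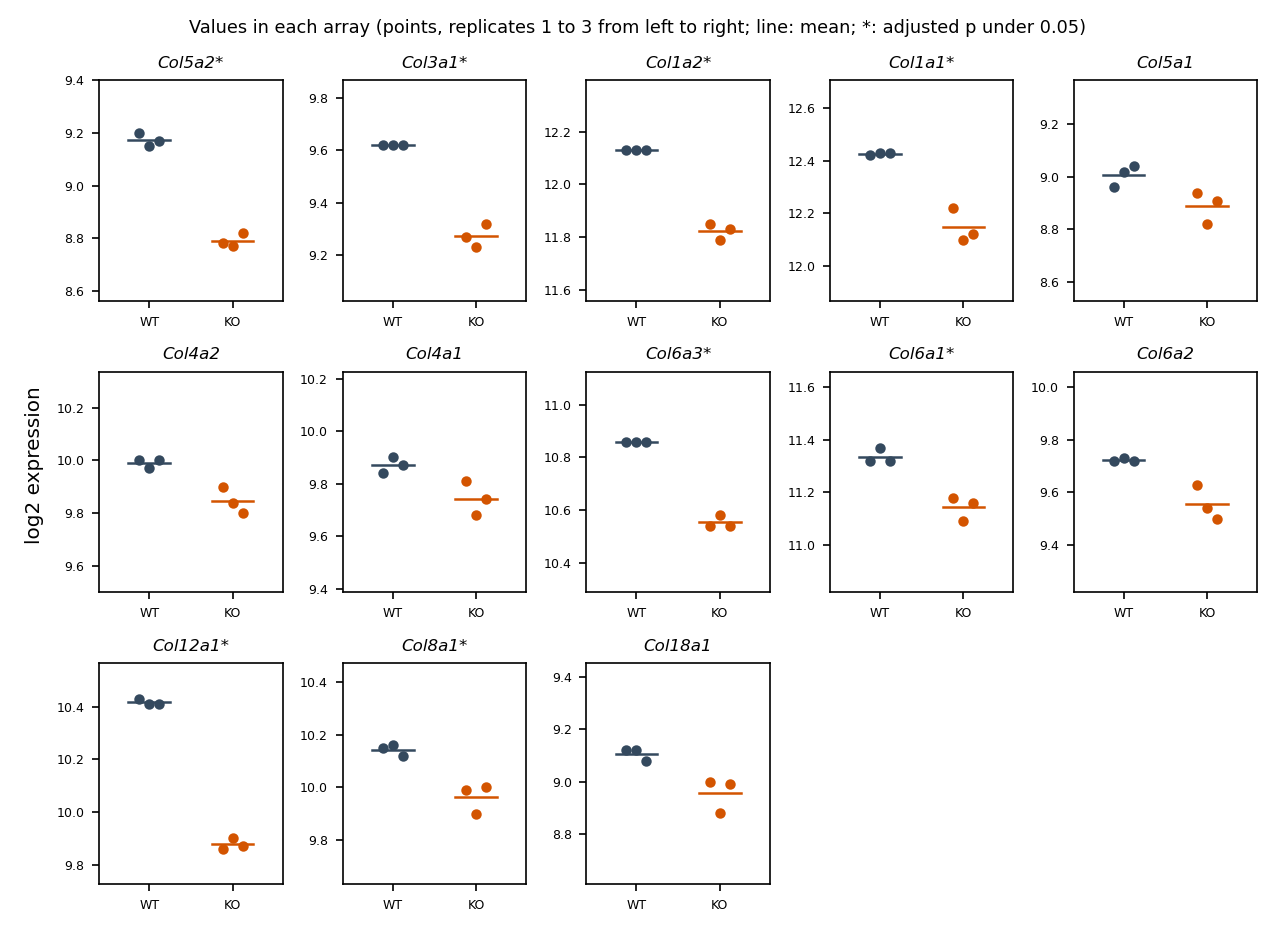
Log2 expression (vertical axis, panels of equal span) in the 3 WT and 3 KO arrays of the 13 collagen genes more than 2 log2 units above background, with points for arrays, lines for means and a star at an adjusted p under 0.05. In all 13 panels every KO point lies below every WT point, and the gap is widest for Col12a1.

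The genes that fell had probe sets well above background, a distance that also depends on each probe set's affinity. A margin of 2 log2 units, chosen after the values were seen, was exceeded by 13 collagen genes, of which 8 fell, and 13 of 13 had all KO values below all WT values. Among all 5729 genes past that margin, 9.64% were called lower, 7.09% higher, and 31.3% had all KO values below all WT values. The margin was taken on the mean of all 6 arrays. Col5a2, with a KO mean of 8.79, passed it only through its WT values. Just short of the margin, at 1.97 and 1.94, Col26a1 and Col9a3 differed by -0.07 and 0.07 with overlapping groups. The count of 13 of 13 thus depends on where the margin was set. Of the 31 other collagen genes, 0 were called (limma; 1 lower and 0 higher at an unadjusted p under 0.05), with a median of 0.01. Near background a probe set can understate a change, so for those 31 genes a small difference is not shown to be absent.

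**Figure D3:**
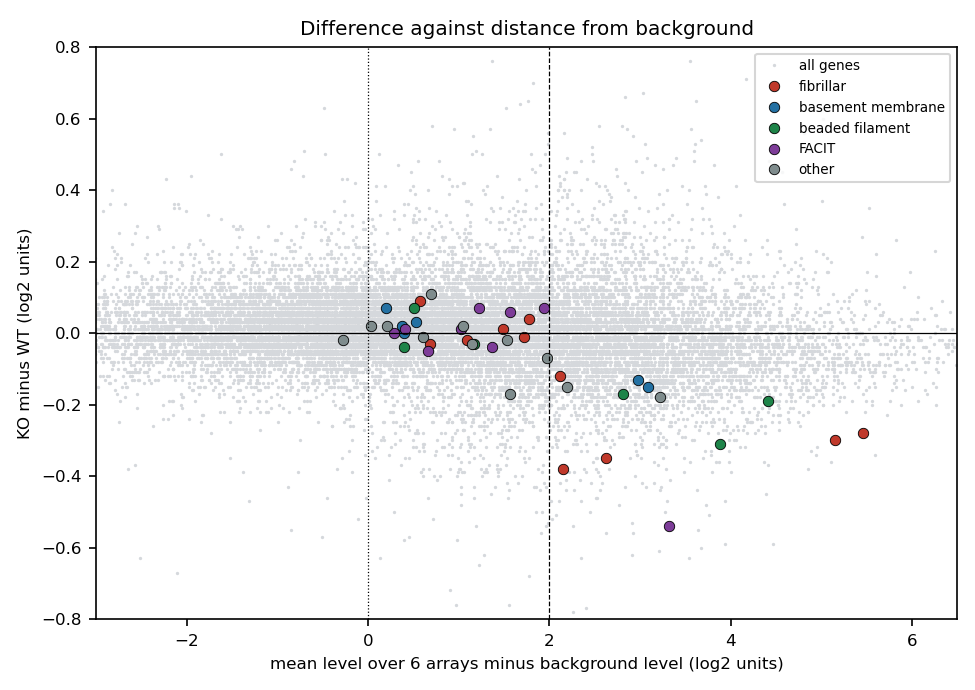
KO minus WT (vertical axis, log2 units) against the mean level over the 6 arrays minus the background level (horizontal axis, log2 units), for the 44 collagen genes coloured by class and all genes in grey; genes outside the axis limits are not drawn. The 13 collagen genes to the right of the dashed line at 2 all lie below 0, and the 31 to its left scatter around 0.

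Within a genotype the collagen genes also ran together by array. Among 35 collagen genes with 3 distinct WT values, WT replicate 1 was the lowest array in 27, or 77.1%, against 40.6% of all genes. WT replicate 2 was the highest in 30 of the 35, against 7211 of 16627 among all genes. Among 38 with distinct KO values, KO replicate 2 was the lowest in 25, or 65.8%, against 42.3% of all genes. For the 8 called genes KO replicate 2 was the lowest KO array in 6, but of the 5 with distinct WT values WT replicate 1 was the lowest in 1. The number of collagen genes with a positive difference was 16 of 44 with all arrays, 9 without WT replicate 1, and 23 without WT replicate 2 or without KO replicate 2. The sign of a small difference near background thus rested on single arrays. The 13 genes past the margin, a cut chosen after the values were seen, were lower in each of these fits. Their KO values all lay below their WT values, so leaving out 1 array could not change that sign.

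Some of the genes that fell are neighbours in the genome. In the RefSeq gene table of GRCm38.p6, Col3a1 and Col5a2 lie next to each other on chromosome 1 with 0 protein-coding genes between them, and fell by 0.35 and 0.38. Col6a1 and Col6a2 are neighbours on chromosome 10, with differences of -0.19 and -0.17. Col4a1 and Col4a2 lie head to head on chromosome 8 on opposite strands, with start sites 21 bases apart, and differed by -0.13 and -0.15. The neighbours Col4a3 and Col4a4 differed by 0.00 and 0.03, and Col4a5 and Col4a6, with starts 1343 bases apart, by 0.02 and 0.07. On chromosome 9, Col6a4, Col6a5 and Col6a6 differed by -0.04, 0.07 and -0.03, and Col19a1 and Col9a1 on chromosome 1 by 0.00 and 0.01. Col1a1 and Col1a2, which fell alike, lie on different chromosomes.

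The promoters of the genes that fell are shown because these genes moved together. The RefSeq promoter table (GRCm38.p6) held 35 of the 44 collagen genes and 5 of the 8 that fell. Each line gives the 150 bases before the annotated start, 5′ to 3′ along the gene, with capitals marking every match, on either strand, to 5 motifs. CCAAT is the box bound by NF-Y, GGGCGG the box of Sp1-type factors, TATAAA the core promoter element, TGANTCA the site of AP-1 dimers and CAGAC a SMAD-type element.
Col1a2 (chr6:4505468-4505617, + strand): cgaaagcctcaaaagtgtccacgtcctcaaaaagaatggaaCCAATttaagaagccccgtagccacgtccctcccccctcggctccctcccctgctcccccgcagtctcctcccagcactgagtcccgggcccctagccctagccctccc
Col3a1 (chr1:45311388-45311537, + strand): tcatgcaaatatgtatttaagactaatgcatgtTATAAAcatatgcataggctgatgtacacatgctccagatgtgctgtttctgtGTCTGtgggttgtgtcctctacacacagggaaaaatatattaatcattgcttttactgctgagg
Col6a1 (chr10:76726045-76726194, - strand): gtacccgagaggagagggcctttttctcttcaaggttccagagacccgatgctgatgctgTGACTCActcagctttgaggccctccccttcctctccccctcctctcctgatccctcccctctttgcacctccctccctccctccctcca
Col6a3 (chr1:90843972-90844121, - strand): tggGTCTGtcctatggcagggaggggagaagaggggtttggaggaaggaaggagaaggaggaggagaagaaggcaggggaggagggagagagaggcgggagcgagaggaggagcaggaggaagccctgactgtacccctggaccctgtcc
Col8a1 (chr16:57754738-57754887, - strand): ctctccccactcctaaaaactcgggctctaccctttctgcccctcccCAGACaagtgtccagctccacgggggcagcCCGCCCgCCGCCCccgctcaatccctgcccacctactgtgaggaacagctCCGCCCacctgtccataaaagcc

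No motif was shared by all 5 windows. CCAAT stood in that of Col1a2 alone among them, TATAAA in that of Col3a1, TGANTCA in that of Col6a1 and GGGCGG, 3 times, in that of Col8a1, and no other match of these 4 motifs was found in the 5. CAGAC stood in those of Col3a1, Col6a3 and Col8a1. Over all 32843 windows of this length, 24.5% held CCAAT, 28.6% GGGCGG, 7.58% TATAAA, 4.24% TGANTCA and 27.7% CAGAC. Over the 38 windows of collagen genes the shares were 21.1%, 50%, 10.5%, 2.63% and 23.7%. A match describes the letters and shows no binding, and regulatory sequence outside these windows was not searched.

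MicroRNAs enter the account of collagen genes in several ways. miR-188 is the microRNA whose gene the knockout mice lack by their label, and the miR-29 family is known to repress the messages of several fibrillar and type IV collagens. Their mature sequences are given from RefSeq (GRCm38.p6), 5′ to 3′, with the seed (bases 2 to 8) in capitals.
miR-188-5p: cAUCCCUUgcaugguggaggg
miR-188-3p: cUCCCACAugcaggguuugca
miR-29a-3p: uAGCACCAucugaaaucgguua
miR-29b-3p: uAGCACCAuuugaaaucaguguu
miR-29c-3p: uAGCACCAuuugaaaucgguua
The 3 miR-29 sequences share 1 seed, AGCACCA, and neither arm of miR-188 shares it. The Mir29a probe set read 3.85, 3.68 and 3.86 in WT and 4.02, 4.31 and 4.27 in KO, higher by 0.40 (limma adjusted p = 0.0437). Both groups lay below background by more than 2 log2 units, and among the 6 leave-one-out fits the one lacking KO replicate 1 kept the call (adjusted p = 0.0311 to 0.152). Mir29b-1 differed by 0.15 (limma adjusted p = 0.252), also below background. Whether these probe sets read the mature microRNA or its precursor is not stated in the labels. Mir29a was chosen after the lists were fixed, and its part in the collagen values was not tested.

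The lists of genes that make, organise, bind and degrade collagen are described by their counts. Among all genes 3.97% were called lower and 3.34% higher, and among those more than 2 log2 units above background 9.64% and 7.09%. Differences between a list and these shares were not tested, and several lists lie near the latter. At an unadjusted p under 0.05 (limma), 2239 of all 19938 genes were lower and 1880 higher. Of the 5729 genes more than 2 log2 units above background, 1465 were lower and 899 higher at that threshold. Of 15 genes that hydroxylate and glycosylate procollagen, 1 rose (6.67%), 2 fell (13.3%) and 12 missed the threshold (median -0.08). P4ha3, a catalytic subunit of the prolyl 4-hydroxylase that stabilises the triple helix, read 9.37 in all 3 WT arrays and 9.08, 8.93 and 8.87 in KO. It fell by 0.41 (SE 0.06, limma adjusted p = 0.0102). Plod3, a lysyl hydroxylase that also adds sugars, fell by 0.17 (limma adjusted p = 0.0218). P3h2, which hydroxylates prolines mainly of type IV collagen, read 8.14, 7.89 and 8.07 in WT and 8.43, 8.46 and 8.51 in KO, a rise of 0.44 (SE 0.07, limma adjusted p = 0.0141). The other subunits did not pass, with -0.11 for P4ha1, 0.15 for P4ha2 and -0.11 for P4hb (limma adjusted p = 0.135, 0.0543 and 0.0819). Without single arrays, P4ha3 was lost in 2 of 6 fits, P3h2 in 4 and Plod3 in 5 (highest adjusted p = 0.0679, 0.0720 and 0.109).

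Of 17 genes of procollagen folding and export 3 fell (17.6%), 0 rose and 14 did not pass (limma). At an unadjusted p under 0.05, 8 were lower and 0 higher. Of the 17 differences 15 were negative, with a median of -0.10. Among all 19938 genes 9510 were negative, with a median of 0.00. Among the 5729 genes more than 2 log2 units above background 3465 were negative, with a median of -0.03. Sec23a, a coat protein of the vesicles that carry procollagen out of the endoplasmic reticulum, read 10.72 in all 3 WT arrays and 10.36, 10.37 and 10.42 in KO. It fell by 0.33 (SE 0.03, limma adjusted p = 0.00386) and passed in all 6 fits without 1 array. Serpinh1, the collagen-specific chaperone HSP47, read 11.35, 11.35 and 11.31 in WT and 11.14, 11.09 and 11.20 in KO, a fall of 0.20 (limma adjusted p = 0.0336). Klhl12, a ubiquitin ligase adaptor that enlarges those vesicles, fell by 0.30 (limma adjusted p = 0.0347). Serpinh1 and Klhl12 each passed in only 1 of the 6 fits without 1 array (highest adjusted p = 0.115 and 0.135).

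Propeptide trimming and crosslinking follow secretion. Of 9 genes that trim the propeptides, 1 fell (11.1%), 0 rose and 8 missed the threshold (limma; 3 lower and 1 higher at an unadjusted p under 0.05). It was Pcolce, which enhances the C-proteinase, with a fall of 0.14 (limma adjusted p = 0.0444) that was lost in each of the 6 fits without 1 array (adjusted p = 0.0843 to 0.135). The C-proteinase Bmp1 itself differed by -0.09 (limma adjusted p = 0.225). Of the 5 measured crosslinking genes, 0 changed (limma; 0 lower and 1 higher at an unadjusted p under 0.05). Lysyl oxidase Lox differed by -0.06 (95% interval -0.13 to 0.02), and its relatives Loxl1, Loxl3 and Loxl4 by 0.10, -0.03 and 0.06.

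Of 17 proteins that organise fibrils, 2 rose (11.8%), 4 fell (23.5%) and 11 missed the threshold (median -0.04). The small leucine-rich proteoglycans decorin and prolargin, which bind fibrils, were the ones that rose. Dcn read 9.58, 9.53 and 9.57 in WT and 9.83, 9.87 and 9.83 in KO, and Prelp read 9.43, 9.36 and 9.40 in WT and 9.71, 9.66 and 9.58 in KO. The groups overlapped in neither. Tenascin C, Tnc, a matrix protein of remodelling tissue, fell by 0.42 (limma adjusted p = 0.00736), and the thrombospondins Thbs2 and Thbs1 fell by 0.20 and 0.16. Periostin, Postn, which links collagen to other matrix proteins, fell by 0.20 (limma adjusted p = 0.0433). Fibronectin Fn1 and Sparc, both needed for collagen assembly, each differed by -0.04. Dcn, Tnc and Thbs2 missed the threshold without WT replicate 3 alone (adjusted p = 0.0524, 0.0570 and 0.0705), Prelp and Postn passed in 1 of the 6 fits without 1 array, and Thbs1 in 0.

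Of 10 genes for collagen receptors and uptake, 0 rose, 3 fell (30%) and 7 missed the threshold (limma; 4 lower and 1 higher at an unadjusted p under 0.05), with a median of -0.04. Itgb1, the beta chain shared by all collagen-binding integrins, read 11.26, 11.22 and 11.25 in WT and 11.01, 11.02 and 11.03 in KO, a fall of 0.22 (limma adjusted p = 0.0102) that was lost only without WT replicate 3 (adjusted p = 0.0681). Its collagen-binding partner chains Itga11 and Itga10 fell by 0.24 each, calls that held in 1 and 0 of the 6 fits without 1 array. The receptor kinases Ddr1 and Ddr2 differed by 0.14 and -0.07 (limma adjusted p = 0.0971 and 0.289).

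Of 12 genes for collagenases and their inhibitors, 3 enzymes rose (25%) and 2 inhibitors fell (16.7%). Mmp13, the main interstitial collagenase of mice, read 9.89, 9.82 and 9.86 in WT and 10.25, 10.38 and 10.30 in KO, a rise of 0.46 (SE 0.04, limma adjusted p = 0.00386). Timp1, a metalloproteinase inhibitor, read 11.96, 11.92 and 11.95 in WT and 11.64, 11.59 and 11.57 in KO, a fall of 0.34 (limma adjusted p = 0.00417). The groups of both lay apart, and both passed in all 6 fits without 1 array. Timp3, the matrix-bound inhibitor, fell by 0.27 (limma adjusted p = 0.00814; 0.0537 without WT replicate 3). The gelatinase Mmp9 and the collagen-degrading cathepsin Ctsk each rose by 0.16 (limma adjusted p = 0.0383 and 0.0466), both lost in each of the 6 fits without 1 array (adjusted p = 0.0676 to 0.142 and 0.0801 to 0.155). The other 7 genes missed the threshold, and the median was 0.05. Mmp14, the membrane collagenase, differed by 0.07, and Mmp2 by -0.10 (limma adjusted p = 0.344 and 0.137).

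Of 21 regulators of collagen transcription, 3 rose (14.3%), 2 fell (9.52%) and 16 missed the threshold (median 0.04). Sox9, which drives the cartilage collagen genes, read 10.68 in all 3 WT arrays and 11.20, 11.10 and 10.99 in KO, a rise of 0.41 (limma adjusted p = 0.00927). The cartilage chains Col2a1, Col9a1, Col9a2, Col9a3, Col11a1 and Col11a2 differed by -0.01, 0.01, 0.06, 0.07, -0.03 and 0.01. They lay 0.41 to 1.94 above background, where a probe set can understate a change. Smad3, a transducer of TGF-beta, and its inhibitor Smad7 rose by 0.20 each (limma adjusted p = 0.0411 and 0.0495). Ccn2, a matricellular gene induced by TGF-beta, fell by 0.20 and the SMAD repressor gene Skil by 0.31 (limma adjusted p = 0.0336 and 0.0253). Tgfb1 differed by -0.07 (limma adjusted p = 0.324). Without single arrays Sox9 was lost in 2 of 6 fits (WT replicate 1 or 3, highest adjusted p = 0.0647), Skil in 4, and Smad3, Smad7 and Ccn2 in 5.

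**Figure D4:**
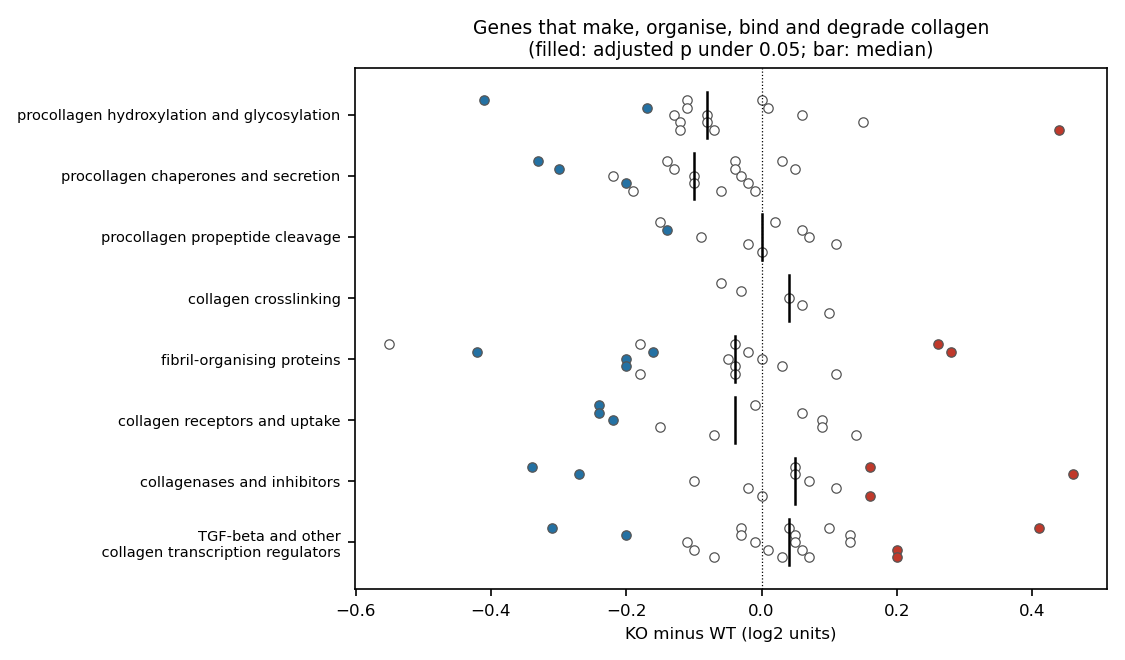
KO minus WT in log2 units (horizontal axis) for the measured genes of 8 lists, 1 point per gene, blue where lower and red where higher at an adjusted p under 0.05, white otherwise, with a bar at each list's median. The filled points of the chaperone and receptor lists are all blue, as is the 1 filled point of the propeptide list, while the collagenases and their inhibitors have Mmp13 at 0.46 and Timp1 at -0.34.

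Marker genes of other cell types and of dividing cells were read beside the collagen genes. Over all genes 3.97% were called lower and 3.34% higher, and 9.64% and 7.09% of those more than 2 log2 units above background. Differences between a marker list and these shares were not tested. Of 6 proliferation markers 5 fell, and their mean level in an array was 10.00 to 10.06 in WT and 9.58 to 9.64 in KO. The mean level of 7 adipocyte markers was 8.13 to 8.15 in WT and 7.83 to 7.89 in KO, with 3 lower and 1 higher. Of these, Pparg read 9.08, 9.21 and 9.08 in WT and 7.84, 7.72 and 8.02 in KO, and Adipoq lay below background. The difference of Pparg, -1.27, was by far the largest of the list and weighs most in that mean. Fabp4 and Lpl differed by -0.33 and -0.42, and Lipe was the one called higher, at 0.19 (limma adjusted p = 0.0269). Plin1, Cidec and Adipoq differed by -0.02, -0.06 and -0.06 and did not pass. The 9 stromal markers averaged 8.91 to 8.94 in both genotypes, with 2 higher and 2 lower. The 5 osteoblast markers averaged 7.09 to 7.18 in WT and 7.17 to 7.23 in KO, with Alpl higher. Of their differences 3 were negative, with a median of -0.02. Ibsp, Dmp1 and Phex lay below background, where Phex differed by -0.21 (limma adjusted p = 0.0987). The 7 smooth muscle and pericyte markers averaged 8.37 to 8.38 in WT and 8.27 to 8.33 in KO, where Tagln fell by 0.33. The 8 chondrocyte markers averaged 6.85 to 6.97 and 6.99 to 7.04, with Sox9 the only one that changed. The 8 endothelial markers averaged 6.68 to 6.74 and 6.63 to 6.71, and the 10 macrophage markers 6.61 to 6.70 and 6.65 to 6.70, with Kdr and Cd68 lower. The part of dividing cells, of adipocytes or of any of these cell types in the collagen values was not tested.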

How the data were processed

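The authors deposited log2 values. Per the submitters' processing notes, RMA (robust multi-array average), Affymetrix Expression Console and Partek were used, with no version given. RMA corrects background, brings arrays to a common distribution and summarises probes by median polish, which can give arrays equal values. Array medians lay between 7.19 and 7.23, and changes are relative to the other genes. Of 35556 probe sets, 21789 had 1 gene symbol in the platform annotation, 1621 several and 12146 none. The GRCm38.p6 gene table updated the symbols by identifier (21698 matched), and each gene took its probe set with the highest mean, which gave 19938 genes.

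KO and WT were compared with limma 3.58.1 (lmFit and eBayes, R 4.3.3), two-sided, with Benjamini-Hochberg adjustment over all genes and calls at an adjusted p under 0.05. The script was tested on simulated data. No gene was filtered. The members, classes and lists were chosen with earlier results of these data known, and lists are described by counts and medians only. All collagen genes were members; called list genes were named, or the 2 with the smallest p each way where none was called, with a few unchanged partners of collagens added after their values were seen. Chain pairs were compared by exact permutation. The number of arrays limits the precision. Alternatives left out each array, used the replicate number as a block, rescaled the arrays (quantile, cyclic loess), left out dim genes, weighted arrays, used a trended robust variance, averaged probe sets or counted groups without overlap.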

Additional observations from a re-analysis of the deposited data

How the results depend on the processing

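The differences of the 8 called collagen genes stayed negative in all 13 alternative fits, and so did those of all 13 collagen genes past the margin over background. In these genes all KO values lay below all WT values. Leaving out or weighting arrays, or changing the variance model, could therefore not turn the sign, and only the rescalings could. In these fits 0 collagen genes were called higher. Collagen genes called lower numbered 8 and were 14 with array weights, 14 when counted as KO values without overlap below WT, and 5 to 7 without 1 array. All genes called lower numbered 791 and were 1814 with array weights, 1227 without dim genes, 1305 with trended robust variances and 80 to 524 without 1 array; those called higher numbered 666 and were 1604 with array weights and 109 to 434 without 1 array. After quantile normalization again 639 were lower and 862 higher, and with cyclic loess 667 and 859.

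By class, 2 basement membrane genes were called lower with array weights and 1 each without dim genes or with trended robust variances, and 0 in every fit without 1 array, where their median lay between -0.04 and 0.04. Beaded filament genes numbered 2 and were 1 with either rescaling and 1 to 2 without 1 array. Of the other chains 1 was called, 3 with array weights, 2 without dim genes, and 0 with either rescaling or without any 1 array. The 8 pathway lists together held 17 genes called lower, 28 with array weights, 26 with trended robust variances and 2 to 10 without 1 array; 9 were called higher, 15 with array weights and 1 to 5 without 1 array.

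The labels give both genotypes replicate numbers 1 to 3. Deviations of same-numbered arrays correlated at -0.299, -0.262 and -0.015, so the numbers were not taken to pair the samples. With the replicate block, which leaves fewer degrees of freedom, 22 genes were lower and 30 higher, 1 collagen gene was lower (Col12a1, adjusted p = 0.0412, limma), 0 fibrillar, 0 beaded filament and 0 other chains, and 0 list genes were lower and 0 higher. Col5a2 and Col3a1 then had adjusted p = 0.0510 and 0.0577. For the remaining changes the cause was not tested. Arrays near background limit what small differences can show.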
